A study of Mus musculus with 8 samples.

Results

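The genes described here are 39 components of Wnt and R-spondin signalling: secreted ligands, their receptors and co-receptors, secreted and membrane antagonists, the nuclear effectors and the feedback genes of the pathway. They were chosen by name, as the array probes whose accession maps through RefSeq to the listed symbols, but with earlier results of these data known. Every one of the 39 has at least 1 probe, with 48 probes among them, and 35 of the 39 were bright enough to be tested among 21116 genes or unnamed transcripts, called features below. RNA was taken from dissociated mouse hippocampal neurons that had been cultured for 10 days, given a lentivirus, and kept for a further 6 days. In 4 samples the virus is labelled as carrying Nr4a1 with a Flag tag and in the other 4 as carrying GFP, so both groups had been infected, and no uninfected sample was compared. Nr4a1 is an orphan nuclear receptor that neuronal activity induces, and the series concerns its part in dendritic spine density and excitatory synapses. The mouse strain, the age of the animals and the promoter driving the transgenes are not given in the sources used here, nor do the labels say that the samples of a group came from separate cultures or animals, so the p-values reflect only how far these samples scatter, and that scatter may be technical.

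Each sample was hybridised in Cy5 to an Agilent mouse array together with 1 commercial mouse reference RNA in Cy3, and the dyes were not swapped on any array. Levels below are log2 ratios of culture over reference RNA, which allow a gene to be compared between arrays but not with another gene. Differences are Nr4a1-labelled minus GFP-labelled, taken within the 4 pairs that the labels define, with limma standard errors (n = 4 per group) and p-values adjusted by Benjamini-Hochberg over all 21116 features. A gene is said to have risen, fallen or been called where that adjusted p was under 0.05. Replicates are always listed in the order 1 to 4, and replicate 4 of each group is batch 2 in the labels.

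Wnts are lipid-modified secreted proteins that bridge a Frizzled receptor and the co-receptors Lrp5 or Lrp6. This halts the destruction of beta-catenin, which then joins TCF/LEF proteins on DNA and switches on target genes, several of which feed back on the pathway. R-spondins carry no signal alone. Bound to Lgr4, Lgr5 or Lgr6, they remove the ubiquitin ligases Rnf43 and Znrf3 that clear Frizzleds from the cell surface, and so make cells more responsive to Wnt. In the hippocampus the pathway is known for its roles in regional patterning, neurogenesis of the dentate gyrus, dendrite growth and synapse assembly.

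Of the 17 members that were called, 8 have a promoter window in the RefSeq table used here (GRCm38.p6), and 6 of these are shown because they include ligands and antagonists that moved in opposite directions. Each line gives the 250 bases before the transcript start, 5′ to 3′ on the gene's strand, with CpG dinucleotides in capitals. Rspo1 (chr4:124986180-124986429 on the plus strand), Wnt4 (chr4:137277385-137277634 on the plus strand) and Frzb (chr2:80447397-80447646 on the minus strand) were lower on Nr4a1-labelled arrays. Sfrp2 (chr3:83766071-83766320 on the plus strand), Wnt7a (chr6:91411354-91411603 on the minus strand) and Nkd1 (chr8:88527383-88527632 on the plus strand) were higher.
Rspo1: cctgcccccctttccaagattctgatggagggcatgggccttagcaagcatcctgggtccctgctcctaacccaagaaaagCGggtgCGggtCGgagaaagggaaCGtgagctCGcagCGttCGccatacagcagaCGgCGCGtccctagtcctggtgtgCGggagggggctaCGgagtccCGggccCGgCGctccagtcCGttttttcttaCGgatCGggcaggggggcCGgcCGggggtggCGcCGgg
Wnt4: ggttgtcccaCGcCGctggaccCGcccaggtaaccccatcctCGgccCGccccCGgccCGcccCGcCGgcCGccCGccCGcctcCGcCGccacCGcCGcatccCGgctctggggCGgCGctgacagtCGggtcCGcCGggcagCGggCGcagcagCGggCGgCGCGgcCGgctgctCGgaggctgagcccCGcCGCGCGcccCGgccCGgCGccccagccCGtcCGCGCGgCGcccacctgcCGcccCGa
Frzb: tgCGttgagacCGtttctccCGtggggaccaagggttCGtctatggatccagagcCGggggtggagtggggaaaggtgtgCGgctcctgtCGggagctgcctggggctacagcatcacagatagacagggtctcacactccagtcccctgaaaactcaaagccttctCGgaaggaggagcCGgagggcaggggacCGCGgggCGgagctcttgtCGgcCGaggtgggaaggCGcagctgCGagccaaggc
Sfrp2: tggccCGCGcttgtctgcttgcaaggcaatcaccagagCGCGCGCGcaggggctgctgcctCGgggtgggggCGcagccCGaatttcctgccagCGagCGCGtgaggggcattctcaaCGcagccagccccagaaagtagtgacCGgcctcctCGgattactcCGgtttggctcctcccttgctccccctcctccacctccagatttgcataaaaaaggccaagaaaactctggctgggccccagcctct
Wnt7a: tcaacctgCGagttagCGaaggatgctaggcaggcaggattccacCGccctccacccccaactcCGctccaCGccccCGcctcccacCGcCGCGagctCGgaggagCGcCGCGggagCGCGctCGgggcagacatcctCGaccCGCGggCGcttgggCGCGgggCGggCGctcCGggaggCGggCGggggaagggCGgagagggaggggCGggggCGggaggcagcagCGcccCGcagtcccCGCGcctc
Nkd1: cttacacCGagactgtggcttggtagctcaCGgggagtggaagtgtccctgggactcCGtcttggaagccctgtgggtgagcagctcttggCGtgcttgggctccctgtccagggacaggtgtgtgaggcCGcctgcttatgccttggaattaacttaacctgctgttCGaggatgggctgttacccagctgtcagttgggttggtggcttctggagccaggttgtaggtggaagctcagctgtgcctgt
The windows of the genes that fell hold 22 CpGs at 66.8% GC (Rspo1), 44 at 85.2% (Wnt4) and 16 at 64.4% (Frzb). Those of the genes that rose hold 16 CpGs at 63.6% GC (Sfrp2), 34 at 77.6% (Wnt7a) and 6 at 58.4% (Nkd1). Over all 32851 windows of the table the medians were 6 CpGs and 52.4% GC, so 5 of these 6 windows lie above the median in CpG count, all 6 lie above it in GC, and neither measure separates the genes that fell from those that rose.

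The 300-base windows, from 250 bases before to 50 after the start, were searched on both strands for 2 TCF/LEF motifs, CTTTGAT and CTTTGTT, and for AAAGGTCA, the monomer motif of NR4A receptors. Matches to CTTTGTT on a strand can overlap matches to AAAGGTCA on the opposite strand, since the reverse of the former ends in letters that open the latter. CTTTGAT was found in 3.73% of all windows, CTTTGTT in 5.85% and AAAGGTCA in 1.51%. Among the 23 members with a window, Wnt5b held CTTTGAT, Fzd7, Dkk1 and Tcf7l2 held CTTTGTT, and 0 held AAAGGTCA. These members have 31 windows among them, so their counts by gene cannot be set directly against the shares by window. The matches are shown in capitals within 30 bases, because none of these 4 genes was called (Dkk1 was too dim to test) and 0 of the 8 called members with a window held any of the 3 motifs.
Wnt5b: agtaagtctctCTTTGATctgctccctgtc
Fzd7: tccacagagaaAACAAAGcgcgctattgga
Dkk1: tcccatcccggCTTTGTTgtcttccctgag
Tcf7l2: caaacaaaatatcaggCTTTGTTcttttga
These stretches lie at chr6:119449439-119449468 on the minus strand, chr1:59482006-59482035 on the plus strand, chr19:30549576-30549605 on the minus strand and chr19:55895291-55895320 on the plus strand, in the same build. A match is a string of letters and not a bound site, and windows without one say nothing of sites elsewhere.

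Across the members, 9 rose, 8 fell and 18 were not called, so 17 of 35 (48.6%) passed the test. Of all 21116 features, 24.4% passed it, 12.8% higher and 11.5% lower, against 25.7% and 22.9% of the members. The list was chosen with earlier results of these data known, so these shares only describe it. The median difference of the members was 0.03 and that of all features was -0.0034, while the median size of the difference, sign ignored, was 0.178 for members and 0.108 for all features. All 17 called members had the same sign in all 4 pairs, and in 13 of them the groups did not overlap. The calls were made from these same values, so both traits follow in part from the call. Over all tested members, called or not, the groups did not overlap in 14 of 35, and over all features in 24.3%. The plot of differences by role shows where the calls fell: all 3 R-spondins and all 5 tested secreted antagonists were called, in both directions, but only 1 of 9 Frizzleds and neither Lrp co-receptor.

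**Figure D1:**
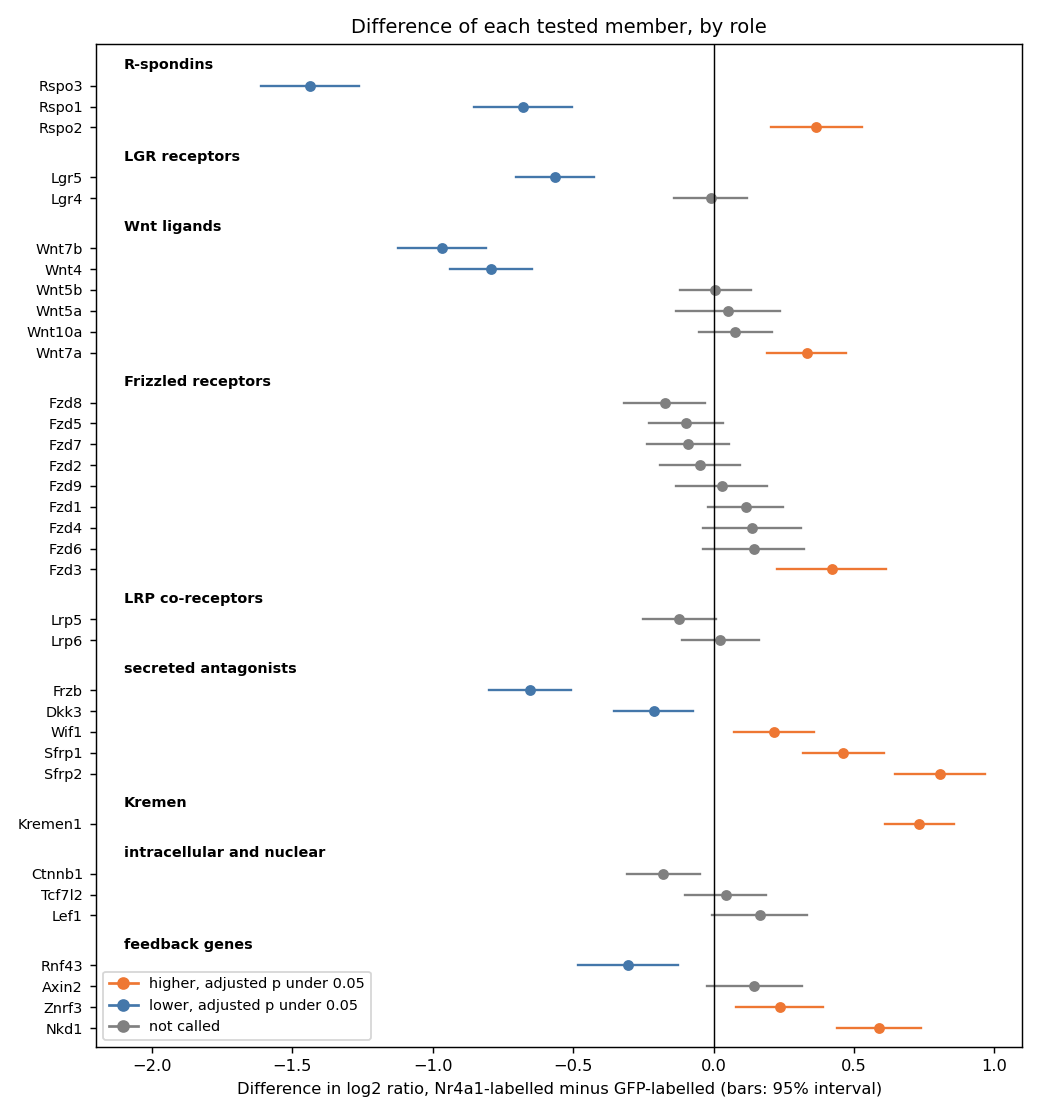
Difference in log2 ratio (Nr4a1-labelled minus GFP-labelled) of the 35 tested members, grouped by role, with 95% intervals as bars and colour for the call at an adjusted p of 0.05. Rspo3 at -1.44 lies furthest below 0 and Sfrp2 at 0.81 furthest above it, while 8 of the 9 Frizzleds have grey, uncalled points.

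**Figure D2:**
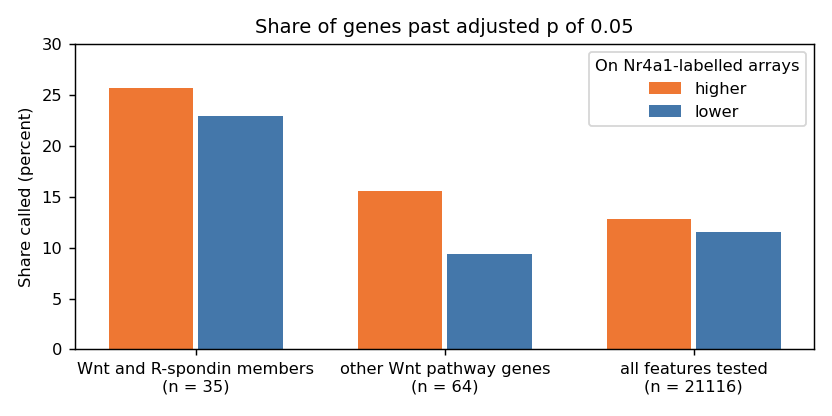
Percent of genes called higher and lower among the 35 tested members, among 64 other genes of the pathway and among all 21116 features. The members' bars reach 25.7% and 22.9%, those of the other pathway genes 15.6% and 9.38%, and those of all features 12.8% and 11.5%.

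Several facts of the whole series touch every value below. All 4 GFP-labelled arrays lie on 1 slide and the Nr4a1-labelled arrays on the other 2 (replicates 1 to 3 and replicate 4), so slide and group cannot be told apart. With slide as a random block in addition to the pair, the correlation within slides was 0.862, 12 of 21116 features were called, and 0 members were called. Within a group, slide differs only at Nr4a1-labelled replicate 4, which is also batch 2. That correlation therefore cannot be read as a slide effect alone, and this fit cannot decide between slide and group. The reference RNA, which was the same on all arrays, differed as well: in the Cy3 channel alone, 18.3% of 19257 features were called, although with a median size of 0.180 against 0.316 for called ratios. Of the 17 called members, 13 could be tested in Cy3 and 3 were called there (Rspo3, Wnt7b and Frzb). The Nr4a1 probe did not separate the groups, with a difference of 0.30 ± 0.15 and adjusted p = 0.196 (limma), and pair differences of 0.73, -0.36, 0.70 and 0.12, so groups are named by their labels throughout. Whether this probe can detect the delivered transgene is not known, so its reading does not show whether Nr4a1 was overexpressed. In the reference channel Nr4a1 differed by 0.15 (limma, adjusted p = 0.044). Of the 17 alternatives the ratio of Nr4a1 was called higher in 2: once replicate 2 was left out (0.52, adjusted p = 0.00646), and when arrays were centred on their medians (0.40, adjusted p = 0.0166). All 11 neuronal markers were well above background on all 8 arrays and 0 of the 11 were called (0 in either direction by limma, 3 at an unadjusted p under 0.05). Their summed Cy5 signal was 364400 to 387500 on GFP-labelled and 347800 to 378400 on Nr4a1-labelled arrays. In the Cy3 channel alone 6 of the 11 were called, so their ratios rest on a reference that differed as well. Of 8 oligodendrocyte lineage markers, 5 rose and 1 fell, and their summed Cy5 signal was 19110 to 28000 on GFP-labelled and 37840 to 55120 on Nr4a1-labelled arrays, without overlap. Of 8 astrocyte markers 2 rose, with sums of 189000 to 235700 against 225800 to 250900, and of 5 tested microglial markers 1 fell, with sums over the 8 listed of 20280 to 22750 against 18030 to 20230 and P2ry12 on no array. Of 4 tested endothelial markers 1 rose, with Cdh5 and Tek on no array and sums over the 6 listed of 2255 to 2549 against 2568 to 2878. The microglial and the endothelial sums thus did not overlap between groups either, though by narrow margins. Of 5 Cajal-Retzius markers 1 rose, and of 4 tested choroid plexus markers 0 were called by limma (1 at an unadjusted p under 0.05). The part that these other cells have in the Wnt results was not tested.

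The R-spondins moved in opposite directions: Rspo3 and Rspo1 fell and Rspo2 rose. Rspo3 had the largest difference of all 35 tested members, 2.71-fold lower, and Rspo1 was 1.60-fold lower. These genes encode the secreted enhancers of Wnt signalling. Rspo3 read 3.94, 3.77, 3.97 and 3.94 on the GFP-labelled arrays and 2.65, 2.35, 2.24 and 2.62 on the Nr4a1-labelled arrays, a difference of -1.44 ± 0.08 (adjusted p = 1.77e-06). Every GFP-labelled array was above every Nr4a1-labelled one, and the pair differences were -1.29, -1.41, -1.72 and -1.32. In the reference channel Rspo3 itself differed by -0.26 (adjusted p = 0.0226), and the Cy5 channel taken alone gave a difference of -1.82.

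For Rspo1 the GFP-labelled values were 3.90, 3.50, 4.03 and 4.09 and the Nr4a1-labelled values 3.44, 2.94, 3.14 and 3.28, a difference of -0.68 ± 0.08 (adjusted p = 2.15e-04). The groups did not overlap, but by a narrow margin, since GFP-labelled replicate 2 at 3.50 lay just above Nr4a1-labelled replicate 1 at 3.44. Rspo2 went the other way, from 2.08, 1.78, 1.96 and 1.99 to 2.36, 2.40, 2.28 and 2.24, a rise of 0.37 ± 0.07 (adjusted p = 0.00518). Its groups were also separate, and its widest pair difference was 0.62 in replicate 2 against 0.25 to 0.32 in the others. In bulk RNA, fewer cells of an expressing type and less RNA per cell cannot be told apart, for these genes or for any below. Of 7 fibroblast and mural markers, all of them well above background on all 8 arrays, Dcn (-0.59) and Lum (-1.0) fell with Rspo3 and Rspo1 and 5 were not called, and their summed Cy5 signal was 11510 to 12780 on GFP-labelled and 11690 to 12960 on Nr4a1-labelled arrays. Their part in the R-spondin differences was not tested.

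Of the receptors that bind R-spondins, Lgr5 fell and Lgr4 was not called. Lgr5, best known as a marker of Wnt-responsive stem cells, read 3.05, 3.01, 3.34 and 2.88 on GFP-labelled arrays and 2.59, 2.50, 2.64 and 2.29 on Nr4a1-labelled arrays, a difference of -0.56 ± 0.06 (adjusted p = 1.70e-04) with no overlap. It was not well above background in the reference, so its ratio rests on a dim Cy3 signal, and Agilent's own ratio gave -1.05 with a lost call (adjusted p = 0.12). Lgr4 differed by -0.01 ± 0.06, with a 95% interval from -0.14 to 0.12. Lgr6 cleared the background on 1 of 8 arrays, too few for a test.

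**Figure D3:**
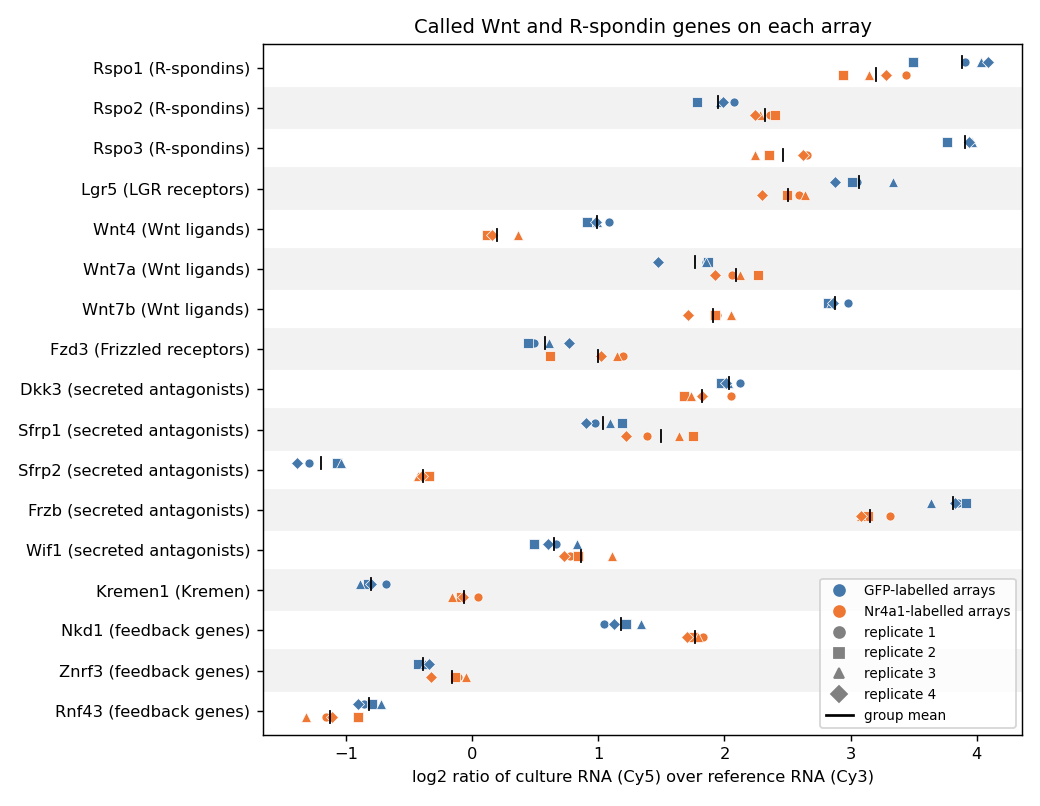
Log2 ratio of culture over reference RNA for the 17 called members on each of the 8 arrays, GFP-labelled in blue and Nr4a1-labelled in orange, with a marker shape for each replicate and a bar at each group mean. Rspo3, Wnt7b, Wnt4 and Frzb show the widest gaps downwards and Sfrp2 and Kremen1 upwards, while the groups of Fzd3, Dkk3, Wif1 and Rnf43 overlap.

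Among the Wnt ligands, Wnt7b and Wnt4 fell, Wnt7a rose, and Wnt5a, Wnt5b and Wnt10a were not called. Wnt7b, which promotes dendrite growth in hippocampal neurons, was 1.95-fold lower. It read 2.98, 2.82, 2.84 and 2.86 on GFP-labelled and 1.94, 1.93, 2.05 and 1.71 on Nr4a1-labelled arrays, a difference of -0.97 ± 0.07 (adjusted p = 1.23e-05). All 4 pairs were lower, with differences of -1.14 to -0.79. In the reference channel Wnt7b differed by -0.21 (adjusted p = 0.0410), and the Cy5 channel alone gave -1.25.

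Wnt4 lay close to the reference RNA on the Nr4a1-labelled arrays and above it on the others. Its values were 1.09, 0.91, 0.99 and 0.98 on GFP-labelled and 0.16, 0.12, 0.37 and 0.16 on Nr4a1-labelled arrays, a difference of -0.79 ± 0.07 (adjusted p = 2.85e-05), or 1.73-fold lower. Wnt7a is close to Wnt7b in sequence and is known for its part in synapse formation. It differed in the opposite direction, from 1.85, 1.87, 1.85 and 1.48 to 2.06, 2.27, 2.12 and 1.93, a rise of 0.33 ± 0.06 (adjusted p = 0.00444). Its groups did not overlap, with the highest GFP-labelled array at 1.87 and the lowest Nr4a1-labelled array at 1.93, and it was not well above background in the reference. Wnt7a did not pass in the Cy5 channel alone (0.20, adjusted p = 0.0992) and in Agilent's ratio (0.12, adjusted p = 0.427), and with all spots kept in the background correction its sign turned (-0.10, adjusted p = 0.880).

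The other 3 tested ligands differed by 0.01 to 0.08. Wnt5a, which signals largely without beta-catenin, differed by 0.05 ± 0.08 (95% interval -0.13 to 0.24), Wnt5b by 0.01 ± 0.06 (-0.12 to 0.13) and Wnt10a by 0.08 ± 0.06 (-0.05 to 0.21). Wnt2 cleared the background on 1 Nr4a1-labelled array of 8, too few for a test. Its readings, all dim, were 0.01, 0.11, 0.06 and 0.12 on GFP-labelled and 0.63, 0.67, 0.45 and 0.18 on Nr4a1-labelled arrays, higher on each of the latter, and it was called higher in the authors' value table and with no filter on dim probes.

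Fzd3, a receptor known for axon guidance through planar polarity signalling, was the only Frizzled of 9 that was called. It rose by 0.42 ± 0.09 (adjusted p = 0.00667), from 0.49, 0.44, 0.61 and 0.76 to 1.2, 0.62, 1.14 and 1.02. The groups overlapped because Nr4a1-labelled replicate 2, at 0.62, lay within the GFP-labelled range, and the pairs rose by 0.71, 0.18, 0.53 and 0.26. The 8 uncalled Frizzleds differed by -0.17 (Fzd8) to 0.14 (Fzd6), with Fzd8 lower and Fzd1 higher in all 4 pairs (-0.17 ± 0.06, adjusted p = 0.0755, and 0.11 ± 0.06, adjusted p = 0.196). With batch as a block in place of the pair Fzd8 was called lower (adjusted p = 0.0439), but in the Cy5 channel alone it differed by 0.11 in the other direction (adjusted p = 0.700). Fzd9, a Frizzled of hippocampal neurons and progenitors, read 4.30 to 4.65 on the 8 arrays and differed by 0.03 ± 0.07. Fzd2, Fzd4, Fzd5 and Fzd7 differed by -0.05 ± 0.06, 0.14 ± 0.08, -0.10 ± 0.06 and -0.09 ± 0.06, and second probes of Fzd7 and Lrp6 gave -0.08 and 0.01. In the Cy5 channel alone Fzd4 (0.24), Fzd5 (-0.22), Fzd6 (0.26) and Fzd9 (0.23) were called as well. The co-receptors Lrp5 (-0.12 ± 0.06) and Lrp6 (0.02 ± 0.06) were not called, with 95% intervals of -0.25 to 0.01 and -0.11 to 0.16.

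All 5 secreted antagonists that could be tested were called, 3 higher and 2 lower. These proteins hold Wnts away from their receptors or block the co-receptors. Sfrp2 rose 1.75-fold and Sfrp1 1.38-fold, while Frzb, of the same family of Frizzled-related proteins, fell 1.57-fold. Sfrp2 read -1.29, -1.07, -1.04 and -1.39 on GFP-labelled arrays and -0.40, -0.35, -0.43 and -0.40 on Nr4a1-labelled arrays, a rise of 0.81 ± 0.07 (adjusted p = 4.45e-05). The Nr4a1-labelled values had an SD of 0.034, against 0.17 for the GFP-labelled ones, and the groups did not overlap. Sfrp1 went from 0.97, 1.19, 1.09 and 0.90 to 1.39, 1.75, 1.64 and 1.22, a rise of 0.46 ± 0.06 (adjusted p = 7.21e-04), with groups that did not overlap. It was not well above background in the reference, and with all spots kept in the background correction the difference was 0.12 (adjusted p = 0.809).

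Frzb, known in the dentate gyrus as a brake on adult neurogenesis, read 3.85, 3.92, 3.64 and 3.83 on GFP-labelled and 3.32, 3.14, 3.08 and 3.09 on Nr4a1-labelled arrays, a difference of -0.65 ± 0.07 (adjusted p = 8.94e-05). Its groups were apart on all arrays. The reference itself differed for Frzb, by -0.30 (adjusted p = 0.0242), and the size of the fall depended on how the channels were treated: -1.05 in Cy5 alone and -0.08 in Agilent's own ratio (adjusted p = 0.647). Of the divergent Dickkopf gene Dkk3, the values were 2.13, 1.97, 2.03 and 2.02 against 2.06, 1.68, 1.73 and 1.82, a difference of -0.21 ± 0.06 (adjusted p = 0.0329) with overlapping groups. Wif1 went from 0.66, 0.49, 0.83 and 0.60 to 0.77, 0.84, 1.11 and 0.73, a rise of 0.21 ± 0.06 (adjusted p = 0.0352), also with overlap, and cleared the background on 3 of 4 GFP-labelled arrays. Wif1 too was not well above background in the reference, and all spots in the background correction gave 0.036 (adjusted p = 0.890). The Dkk3 and Wif1 calls were lost when replicate 2, 3 or 4 was left out, and Wif1 also without replicate 1. Dkk1 and Dkk2, the Dickkopfs that bind the Lrp co-receptors, cleared the background on 0 of 8 arrays.

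Kremen1, the membrane receptor that works with Dickkopfs to take the Lrp co-receptors off the cell surface, was 1.66-fold higher. It read -0.68, -0.83, -0.89 and -0.80 on GFP-labelled arrays and 0.04, -0.09, -0.16 and -0.07 on Nr4a1-labelled arrays, a rise of 0.73 ± 0.055 (adjusted p = 1.65e-05). The pair differences were 0.72, 0.74, 0.73 and 0.73 (shown in the plot of pair differences). In the reference channel Kremen1 differed by -0.07 (adjusted p = 0.378).

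**Figure D4:**
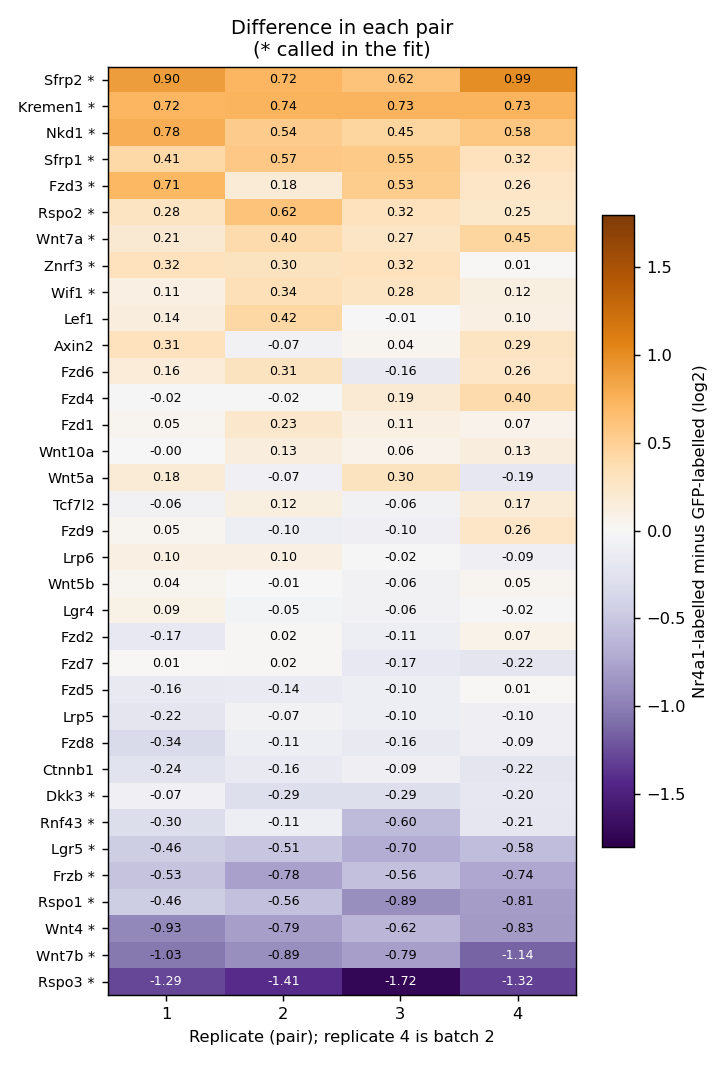
Log2 difference (Nr4a1-labelled minus GFP-labelled) of each tested member in each of the 4 pairs, with the value printed in each cell, orange for higher and purple for lower, and an asterisk for called genes. Kremen1 runs from 0.72 to 0.74 and Rspo3 from -1.72 to -1.29, while Axin2 runs from -0.07 to 0.31 and Fzd4 from -0.02 to 0.40.

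None of the 3 intracellular and nuclear effectors was called (0 by limma, 1 at an unadjusted p under 0.05). Ctnnb1, which encodes beta-catenin, came closest: it read 0.70, 0.70, 0.61 and 0.56 on GFP-labelled arrays and 0.46, 0.54, 0.52 and 0.33 on Nr4a1-labelled arrays. The difference was -0.18 ± 0.06 (95% interval -0.31 to -0.05, adjusted p = 0.0517), lower in all 4 pairs without overlap, and it was called lower under 5 of 17 other ways of processing, while centring arrays on their medians gave -0.045 (adjusted p = 0.800). The transcription factor genes Tcf7l2 (0.04 ± 0.06, interval -0.10 to 0.19) and Lef1 (0.16 ± 0.08, adjusted p = 0.145) were not called. In the reference channel Lef1 differed by -0.29 (adjusted p = 0.0154).

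The feedback genes, which Wnt signalling itself can induce and which dampen it, went in different directions. Nkd1, a Dishevelled-binding inhibitor, rose 1.5-fold, from 1.05, 1.22, 1.33 and 1.12 to 1.83, 1.75, 1.79 and 1.70 (0.59 ± 0.07, adjusted p = 2.06e-04), without overlap. Axin2, a scaffold of the beta-catenin destruction complex and a widely used readout of the pathway, was not called: its values of 1.57, 1.44, 1.54 and 1.24 against 1.88, 1.38, 1.58 and 1.53 gave 0.15 ± 0.08 (95% interval -0.02 to 0.31, adjusted p = 0.197). Nkd1 was thus called and Axin2 was not, and the difference between them was not tested. In the reference channel Axin2 differed by 0.22 (adjusted p = 0.0226), and in Cy5 alone it was called higher (0.35, adjusted p = 0.0164).

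The paired ubiquitin ligases that R-spondins remove, Znrf3 and Rnf43, were called in opposite directions, each by a small amount. Rnf43 read -0.86, -0.79, -0.72 and -0.91 on GFP-labelled and -1.16, -0.90, -1.32 and -1.12 on Nr4a1-labelled arrays, a difference of -0.31 ± 0.08 (adjusted p = 0.0205) with overlap between the lowest GFP-labelled and the highest Nr4a1-labelled array. Znrf3 read -0.43, -0.43, -0.38 and -0.34 against -0.11, -0.13, -0.05 and -0.33, a rise of 0.24 ± 0.07 (adjusted p = 0.0329). Its replicate 4 pair differed by 0.010, and its signal cleared the background on 3 of 4 Nr4a1-labelled arrays. The Znrf3 call was lost without replicate 1, 2 or 3 and the Rnf43 call without replicate 1 or 3.

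A wider list of 75 other genes of the pathway, of which 64 were tested, was called at a share near that of all features: 10 rose and 6 fell, so 25% were called against 24.4%, with a median difference of -0.03. The antagonists and ligands led it by size. Sostdc1, a secreted inhibitor of Wnt and BMP signalling, read 2.51, 2.57, 2.62 and 2.66 on GFP-labelled and 1.4, 1.32, 1.28 and 1.02 on Nr4a1-labelled arrays, a difference of -1.34 ± 0.08 (adjusted p = 4.40e-06). Wnt9b, a ligand that cleared the background on 3 of 4 GFP-labelled arrays, read 0.36, 0.29, 0.33 and -0.0022 there and 1.39, 1.71, 1.64 and 1.36 on Nr4a1-labelled arrays, a rise of 1.28 ± 0.07 (adjusted p = 2.41e-06). Both had groups that did not overlap, but both were too dim in the reference to be tested there.

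Dkkl1, a Dickkopf-like gene, fell by 0.61 ± 0.08, and the cyclin D1 gene Ccnd1 rose by 0.52 ± 0.06. In the reference channel Ccnd1 differed by -0.13 (limma, adjusted p = 0.0387). Tspan12 (0.43 ± 0.08) and Ndp (0.34 ± 0.07), which encode the co-receptor and the ligand norrin of a Fzd4 pathway, rose together, as did the corepressor gene Tle4 (0.38 ± 0.07) and the ligand gene Wnt8b (0.36 ± 0.10). Of these only Wnt8b had overlapping groups. Ndp and Wnt8b were also too dim in the reference to be tested there. The Wnt8b call held in only 9 of 17 other ways of processing and was lost in the authors' value table. The Ndp call held in 13, and those of Dkkl1, Ccnd1, Tspan12 and Tle4 in 15 or 16. The remaining genes that rose were Wnt6, Wls, Daam2 and Prickle1, by 0.19 to 0.34, and the remaining genes that fell were Apcdd1, Bcl9l, Daam1 and Myc, by 0.18 to 0.33.

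The calls differed in how far they held under 17 other ways of processing the arrays, as the map of calls by processing shows. Wnt4, Sfrp2 and Kremen1 were called in 16 of the 17, all but the fit with slide as a random block. Rspo3, Wnt7b and Nkd1 were called in 15, losing also the fit in which all spots were kept in the background correction. Rspo1, Rspo2, Lgr5, Fzd3, Sfrp1 and Frzb were called in 14, losing Agilent's own ratio too. These genes and Wnt7a, 13 in all, kept their calls when any 1 replicate was left out. The median centring of arrays in place of loess kept 15 of the 17 calls, although it moved the share of all calls that were higher from 52.7% to 73.3%. Wnt7a was called in 13 of the 17 and Rnf43 in 12. The weakest calls were Znrf3, in 9 of the 16 fits that held it, Dkk3 in 6 of 17 and Wif1 in 4 of 16.

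**Figure D5:**
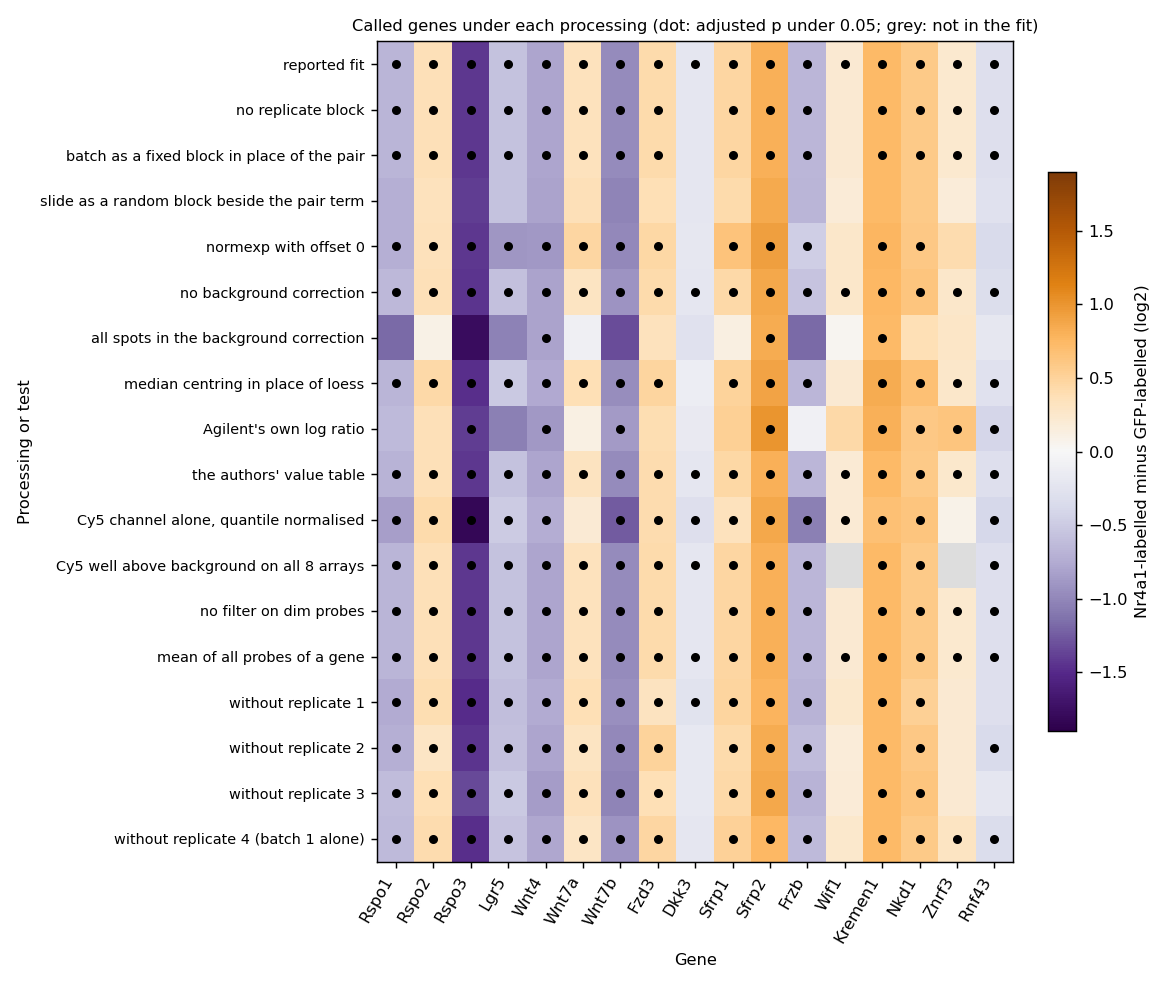
Log2 difference of the 17 called members (columns) in the fit reported here and under 17 alternatives (rows), orange for higher and purple for lower, with a dot where the adjusted p was under 0.05 and grey where the gene was not in the fit. Wnt4, Sfrp2 and Kremen1 carry a dot in every row but the slide block, and Dkk3 and Wif1 carry the fewest dots.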

How the data were processed

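RNA of 8 samples was measured on 2-colour Agilent arrays, 4 per group. Per the file headers, Agilent Feature Extraction 11.0.1.1 wrote the deposited scanner files, which hold median signal and local background intensities per spot, with the log10 ratio of the software's own processed intensities. The authors deposited a table of log2 ratios, whose columns correlated with the ratios computed here at 0.998 to 1.00 with slopes of 0.992 to 1.01 and medians of 0.0240 to 0.0312, so it was read as culture over reference. The submitters' processing notes name Feature Extraction and limma without settings.

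Each array held 43020 spots that were not controls, with median Cy5 signals of 137 to 194 over backgrounds near 30, and 0 saturated spots. The number of arrays, 4 per group, limits the precision. Spots marked as outliers or with a non-uniform local background (37 on Nr4a1-labelled replicate 2) were left out. The background was corrected by normexp with offset 50, which shrinks folds of dim probes, and ratios were normalised by loess within arrays. RefSeq accessions gave 26581 of 39429 probes a symbol. A gene was represented by its brightest probe in Cy5 and tested where its Cy5 signal cleared the background (as the software marks it) on at least 4 of 8 arrays with at least 3 values per group.

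Limma 3.58.1 in R 4.3.3 was fitted to all 21116 features with the labels' pair as a block, two-sided, with Benjamini-Hochberg adjustment. The scripts were tested on simulated data. Deviations from the group means correlated within pairs at -0.10, 0.28, -0.016 and 0.42, so the block rests on the labels' pair tag. Members that were called are given in full, others by their difference, and the 8 largest called differences are named from the list of other pathway genes. Marker sums are quantile-normalised Cy5 intensities. Alternatives changed the block, background correction, normalisation, filter, probe choice and replicates. The fit of the Cy3 channel alone was added after seeing the files. The members, lists and several processing choices were chosen with earlier results of these data known. Promoter sequences are from RefSeq (GRCm38.p6), and 23 of 39 members matched.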

Additional observations from a re-analysis of the deposited data

Results flagged for a closer look

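In 6 of the 70 groups of 4 arrays checked among the tested members, 1 array stood apart from the other 3 by a share of the group's range above Dixon's 95% critical value, and chance alone marks about 1 in 20 groups. Among called members, Rspo3 read 3.77 on GFP-labelled replicate 2 against 3.94 to 3.97 on the others, Wnt4 read 0.37 on Nr4a1-labelled replicate 3 against 0.12 to 0.16, and Wnt7a read 1.48 on GFP-labelled replicate 4 against 1.85 to 1.87. The calls of all 3 genes held without those replicates. Among members that were not called, Fzd2 read -1.95 on GFP-labelled replicate 1 against -2.03 to -2.02, Fzd6 read -1.74 on Nr4a1-labelled replicate 3 against -1.37 to -1.36, and Lrp6 read -0.78 on GFP-labelled replicate 4 against -0.51 to -0.47. Fzd6 was called higher without replicate 3.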

How the results depend on the processing

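With no replicate block, 8 members rose and 7 fell (2350 and 2125 of all features, 9 and 5 of the other pathway genes), and the lost calls were Dkk3 and Wif1. With batch as a block in place of the pair, 8 rose and 9 fell (2991 and 2751 of all features). Of the other pathway genes, 11 rose and 7 fell there. Among members, the calls of Dkk3 and Wif1 were lost and those of Fzd8 and Ctnnb1 were gained. With slide as a random block added to the pair, 0 members were called in either direction (8 and 4 of all features, 0 and 0 of the other pathway genes), while all 17 differences kept their sign; each group lies on slides of its own, so this cannot be settled. With all spots in the background correction, 2 members rose and 1 fell (130 and 98 of all features, 1 and 0 of the other pathway genes), and Wnt7a (-0.10, adjusted p = 0.880) and Ndp (-0.25, adjusted p = 0.804) turned sign. That fit differed from the reported one only in keeping spots with a non-uniform local background. There were at most 37 of these on an array (Nr4a1-labelled replicate 2), so most calls depended on leaving out few spots. In Agilent's own ratio 4 rose and 4 fell (1511 and 1350 of all features, 6 higher among the other pathway genes). Over all features, offset 0 gave 1704 and 1559, and median centring gave 1262 lower. In Cy5 alone 10 of the other pathway genes fell. The cause was not tested for any of these. Leaving out 1 replicate gave 7 to 8 members higher and 6 to 7 lower, 1768 to 2592 and 1616 to 2002 of all features, and 6 to 10 and 4 to 5 of the other pathway genes; the lowest counts of all features were those without replicate 1, with fewer arrays. Dim probes limit the list: Dkk1, Dkk2, Lgr6 and Wnt2 could not be tested.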
